A study of Mus musculus with 5 samples.

Results

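The 9 genes described here encode enzymes of heme synthesis and a carrier that feeds it, namely Alas1, Alas2, Alad, Uros, Urod, Cpox, Ppox, Fech and Slc25a38. They were chosen by name, and all 9 had at least 1 probe set that the platform annotation gives to that gene alone, 20 probe sets in all, out of 18193 genes with such a probe set on the array. Other enzymes of the pathway are not analysed here. The study put RNA from long-term haematopoietic stem cells, gated by flow cytometry as LSK IL7Ra-Flt3-CD150+CD48- (LSK for cells without lineage markers and with Sca-1 and Kit), on 5 Affymetrix mouse genome arrays, 3 from Lrf knockout and 2 from control mice. The knockouts were Zbtb7a Flox/Flox Mx1-Cre+ and the controls Zbtb7a Flox/+ Mx1-Cre+, all C57BL/6 and aged 4 weeks. Zbtb7a encodes the transcription factor LRF. All mice, controls included, carried Cre and received 2 injections of pIpC (250 µg), an analogue of double-stranded RNA, and cells were sorted 9 days after the first. The Mx1 promoter that drives Cre answers to interferon in many cell types and is not restricted to stem cells. The controls still had 1 floxed allele each, so an effect of losing a single allele was not measured. The description of knockout 3 names 2 animals and the others name 1 each, so whether each array stands for a single mouse is not settled, and the p-values measure only the spread between these samples.

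Heme is built from glycine and succinyl-CoA by a chain of enzymes that begins and ends in mitochondria. The first step sets the rate and has a ubiquitous form, encoded by Alas1, and a red cell form, encoded by the X-linked gene Alas2. Developing red cells make most of the body's heme, for haemoglobin, and raise Alas2, Fech and the mitochondrial iron importer Slc25a37 late in their maturation, while other cells need heme for respiratory and other enzymes.

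Promoter letters are shown because GATA1 and KLF1, the main transcription factors of red cells, bind sites that contain GATAA and CACCC. RefSeq promoter windows (build GRCm38.p6, the 250 bases before each annotated start) are described for 8 of the 9 genes, with 11 starts. Fech was left out of this set, so its promoter was not examined. In the sequences below, written 5′ to 3′ on the gene's strand, capitals mark TTATC, which is GATAA on the other strand, and GGGTG, which is CACCC on the other strand. Both strands were searched, and overlapping matches were counted.
Alas2: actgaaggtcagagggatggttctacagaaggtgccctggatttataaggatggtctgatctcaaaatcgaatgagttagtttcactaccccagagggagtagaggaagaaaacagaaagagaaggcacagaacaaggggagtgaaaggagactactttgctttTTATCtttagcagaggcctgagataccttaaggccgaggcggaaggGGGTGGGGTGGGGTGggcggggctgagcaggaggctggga
Cpox: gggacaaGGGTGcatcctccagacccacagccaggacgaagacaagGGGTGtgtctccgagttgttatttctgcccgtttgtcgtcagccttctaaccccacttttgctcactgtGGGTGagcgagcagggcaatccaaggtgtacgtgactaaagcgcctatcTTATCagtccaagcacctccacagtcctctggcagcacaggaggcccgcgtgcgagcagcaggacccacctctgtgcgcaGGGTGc
Uros, downstream start: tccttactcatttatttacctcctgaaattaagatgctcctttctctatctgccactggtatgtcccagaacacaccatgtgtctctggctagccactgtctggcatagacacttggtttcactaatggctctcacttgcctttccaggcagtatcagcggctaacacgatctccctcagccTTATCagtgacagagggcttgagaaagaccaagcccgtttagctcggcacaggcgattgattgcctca
Alas1, upstream start: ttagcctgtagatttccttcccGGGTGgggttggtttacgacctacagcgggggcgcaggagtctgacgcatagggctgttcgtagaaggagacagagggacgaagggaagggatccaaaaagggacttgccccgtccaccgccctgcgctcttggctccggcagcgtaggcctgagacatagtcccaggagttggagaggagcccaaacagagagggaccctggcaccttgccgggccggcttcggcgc
The Alas2 window (chrX:150547167-150547416, plus strand) held 1 GATAA match, whose first base lies 86 bases before the start, and 3 CACCC matches that lie end to end. The Cpox window (chr16:58669958-58670207, plus strand) held 1 GATAA match, also 86 bases before the start, and 4 CACCC matches. Uros had 2 starts, of which the downstream one (chr7:133702501-133702750, minus strand) held 1 GATAA match 68 bases before the start and no CACCC. Alas1 is shown for contrast, as the ubiquitous form, and its upstream window (chr9:106247955-106248204, minus strand) held 1 CACCC and no GATAA. In all, 3 of the 11 windows held GATAA (27.3%), against 22.6% of 32851 promoter windows of the same length. CACCC was found in 6 of the 11 (54.5%), against 52.0% of all windows. The shares of the heme synthesis windows, which do not include Fech, were thus near those of all promoters. At least 3 CACCC matches, as in Alas2 and Cpox, were found in 6.92% of all windows.

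None of the 9 genes separated the knockout from the control arrays. With limma, 0 of the 18 probe sets that passed the filter on dim values had an adjusted p under 0.05, and 0 had an unadjusted p under 0.05 (smallest 0.284), against 0.0% and 1.13% of 27022 probe sets. The knockout and control arrays overlapped for every one of the 20 probe sets, while they did not overlap for 7.18% of 12813 genes; on every knockout array 2.68% lay above and 4.5% below both controls. On the brightest probe set of each gene, the mean was higher in knockouts for 6 genes and lower for 3, with log2 differences of -0.57 to 0.52. The median difference of the 9 genes was 0.13, beside -0.03 over 12813 genes.

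The genes instead differed between arrays of the same group, Alas2 most of all. Alas2 read 6.71, 12.89 and 7.88 (log2 intensity) in knockouts 1, 2 and 3, against 11.75 and 7.72 in controls 1 and 2. It was high in knockout 2 and control 1 and low in the other 3 arrays, and its range of 6.18, a 72.5-fold span, was reached by only 0.0702% of genes. The lowest value, 6.71 in knockout 1, lay near the median of that array (6.40). No other probe set was given to Alas2 alone. The group means were 9.16 ± 3.28 in knockouts (SD, n = 3) and 9.74 ± 2.85 in controls (SD, n = 2), a log2 difference of -0.57 (SE 2.30). The 95% interval of that difference ran from -6.60 to 5.45, so these arrays do not fix even its direction. Alas1, the ubiquitous enzyme, read 8.96, 10.71 and 9.61 in knockouts against 9.78 and 9.48 in controls. Its log2 difference was 0.13 (SE 0.55, interval -1.31 to 1.57), and knockout 2 was again the highest array. The other Alas1 probe set, whose name contains _x_at and which can share probes with similar transcripts, also read highest there (9.08) but spanned only 0.77. Slc25a38, the mitochondrial carrier that brings in glycine for this step, read 8.73, 9.21 and 8.91 in knockouts against 9.23 and 8.34 in controls, a difference of 0.16 (SE 0.33).

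The cytosolic middle of the pathway varied less among the knockouts than between the controls, as did Cpox, Ppox and Slc25a38. Alad, which encodes the enzyme that joins 2 molecules of aminolevulinate into porphobilinogen, read 12.27, 12.24 and 12.17 in knockouts against 13.04 and 11.85 in controls. The 3 knockouts lay within a narrow band and the controls on either side of it, so the means of 12.23 ± 0.05 (SD, n = 3) and 12.45 ± 0.84 (SD, n = 2) differed by -0.22 (SE 0.38). The second Alad probe set differed by 0.13, the other way. Uros, which encodes the synthase that closes the porphyrin ring, read 10.05, 10.65 and 10.56 in knockouts against 10.99 and 9.37 in controls. Again all 3 knockouts lay between the controls, and the difference was 0.24 (SE 0.54), with -0.01 on the dimmer probe set. Urod, which encodes the decarboxylase that follows, read 12.53, 12.55 and 12.75 in knockouts against 13.19 and 12.16 in controls, a difference of -0.06 (SE 0.34) on a probe set named _x_at and 0.09 (SE 0.39) on the other. The knockouts were bracketed by the controls here too.

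The last 3 enzymes work in mitochondria. Cpox, the coproporphyrinogen oxidase gene, had the largest positive difference of the 9, with 9.92, 10.06 and 10.78 in knockouts against 10.35 and 9.11 in controls. The means of 10.25 ± 0.46 (SD, n = 3) and 9.73 ± 0.88 (SD, n = 2) differed by 0.52 (SE 0.48, interval -0.73 to 1.78; limma unadjusted p = 0.326, adjusted p = 1.0), and its other probe sets by 0.50 and 0.27. In all 3 Cpox probe sets control 2 was the lowest array and control 1 stood among the knockouts or above them. Ppox, the protoporphyrinogen oxidase gene, read 9.37, 9.91 and 9.97 in knockouts against 10.37 and 8.96 in controls, a difference of 0.08 (SE 0.48). Fech, the ferrochelatase gene whose enzyme inserts iron to complete heme, read 10.95, 13.23 and 11.44 in knockouts against 12.70 and 10.70 in controls. Like Alas2, it was high in knockout 2 and control 1, with a range of 2.53 that 4.64% of genes reached, and its difference was 0.18 (SE 0.94, interval -2.28 to 2.64). The other 2 bright Fech probe sets gave 0.21 and 0.30 with the same high arrays. The remaining Fech probe set, at 5.12, 5.41 and 5.04 in knockouts and 5.12 and 5.08 in controls, and 1 of 3 Ppox probe sets lay below the filter (5.77) and were not tested.

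**Figure D1:**
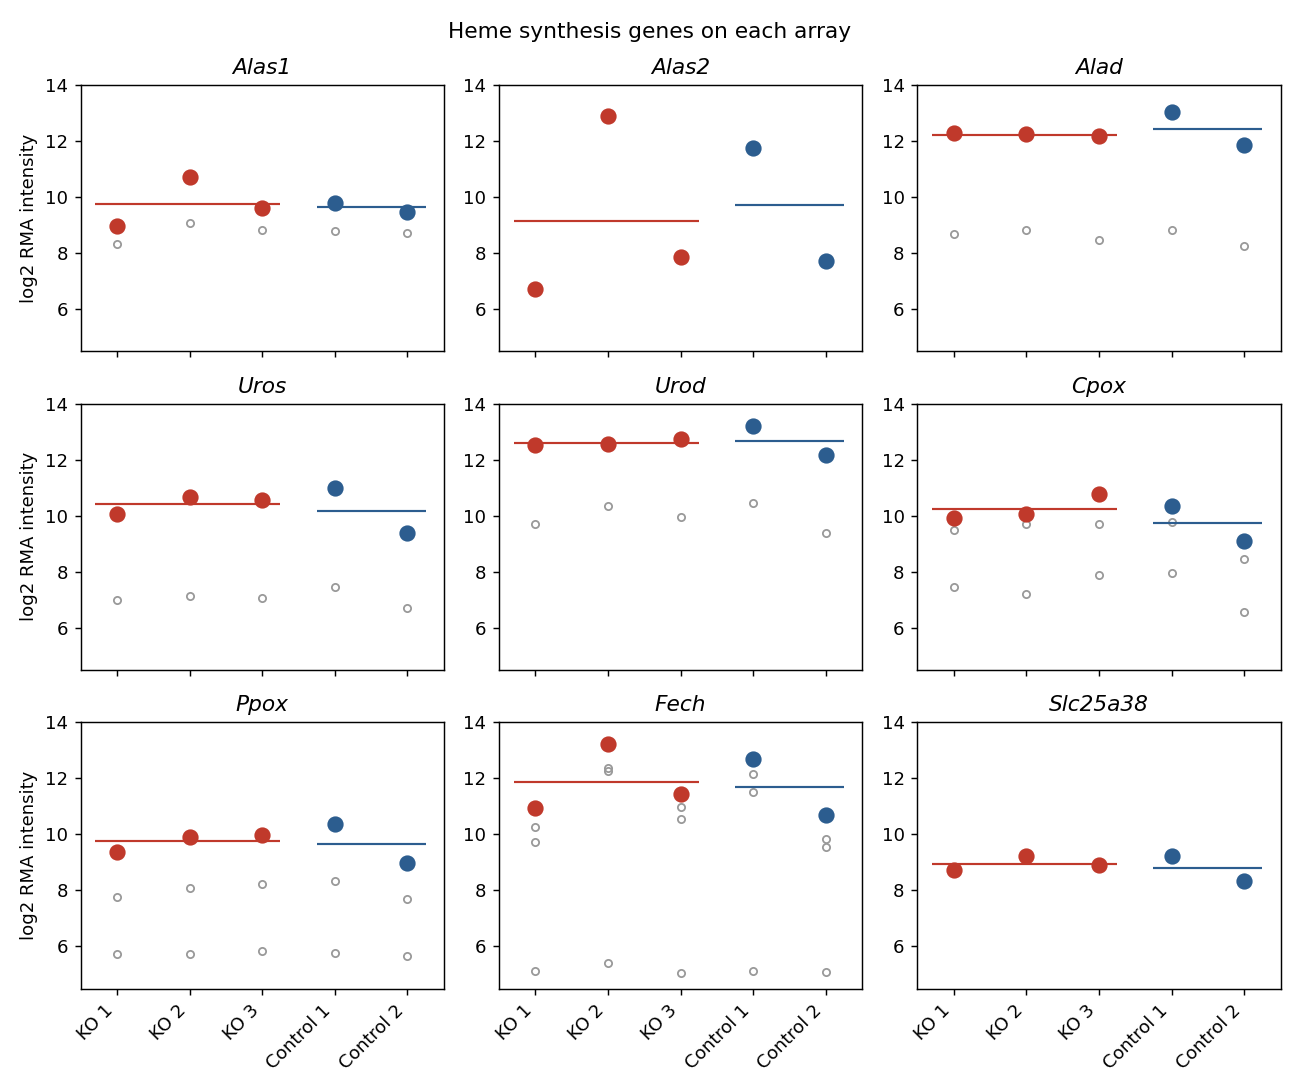
Log2 RMA intensity (vertical axis) of each heme synthesis gene on the 3 Lrf knockout arrays (KO, red) and the 2 control arrays (blue); filled points are the brightest probe set, lines its group mean, and open grey points the gene's other probe sets. Alas2 and Fech are high in knockout 2 and control 1, while the 3 Alad values of the knockouts (12.17 to 12.27) lie between the controls.

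Control 1 read higher than control 2 for 9 of 9 genes and for all 20 probe sets, whereas it did so for 39.7% of genes overall. The gap was at least 1 for 7 of the 9 (all but Alas1 and Slc25a38), a size reached by 3.45% of genes. It was largest for Alas2, with a log2 gap of 4.02 (16.3-fold), followed by Fech with 2.00 (4.00-fold) and Uros with 1.62 (3.08-fold). Control 2 was the lowest of the 5 arrays for 7 genes, against 15.0% of all genes. All 3 knockouts lay between the controls for 5 genes (Alad, Uros, Urod, Ppox and Slc25a38), against 9.82% of all genes. The direction of the group differences turned with the control left out, as it must for the 5 genes whose knockouts lay between the controls. Without control 1 all 9 differences were positive (0.28 to 1.44, median 0.79), and without control 2 all 9 were negative (-2.59 to -0.017, median -0.58), with no adjusted p under 0.05 in either case.

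**Figure D2:**
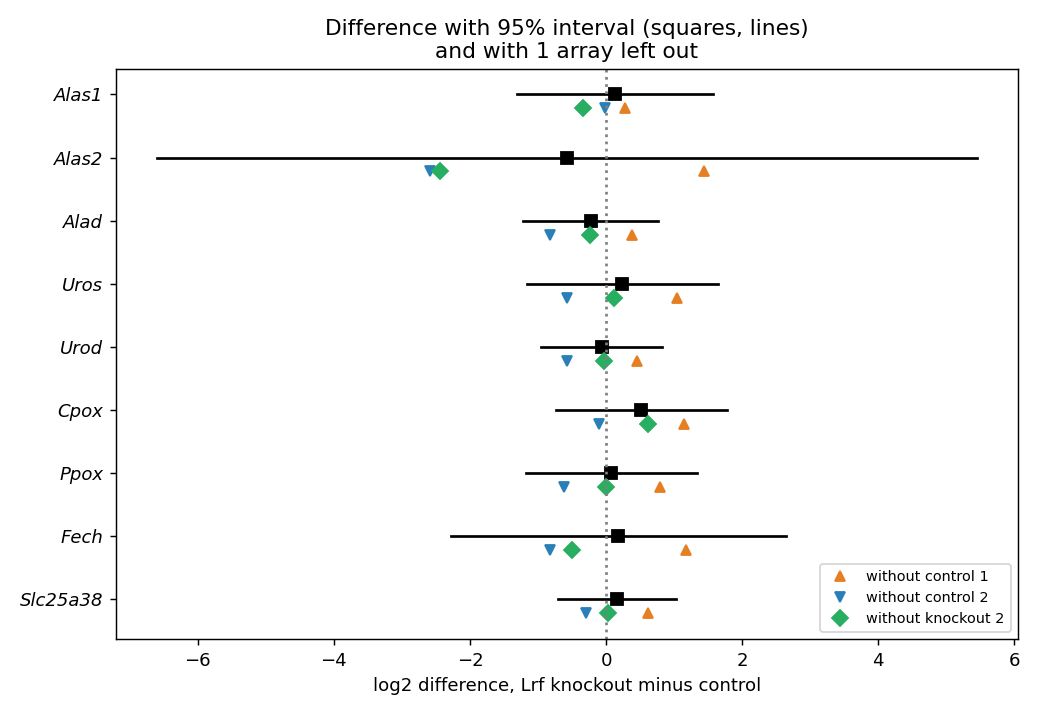
Log2 difference, Lrf knockout minus control, of each heme synthesis gene (squares) with its 95% interval from limma (lines), and the same difference without control 1, control 2 or knockout 2. Every interval crosses 0, and leaving out control 1 or control 2 puts all 9 differences on opposite sides of 0.

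Among the knockouts a different subset moved. Knockout 2 exceeded the mean of knockouts 1 and 3 by at least 1 for 3 genes, against 8.62% of all genes: Alas2 by 5.60, Fech by 2.03 and Alas1 by 1.42. For the other 6 genes it differed from that mean by -0.29 (Cpox) to 0.38 (Slc25a38). Knockout 2 also stood apart over the whole array, with a correlation of 0.945 to 0.970 with the other arrays across probe sets, against 0.977 to 0.990 for all other pairs. Without it the Alas2 difference was -2.44, and Fech (-0.50) and Alas1 (-0.34) turned negative, while Cpox gave 0.62.

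Red cell markers showed the same split between arrays. Of 19 erythroid markers, 16 were measured and passed the filter, 0 passed the test, and their mean level was 9.88, 11.23 and 10.67 in knockouts 1, 2 and 3 against 11.35 and 9.45 in controls 1 and 2. All 16 were higher in control 1 than in control 2, 15 of them by at least 1. The widest ranges were those of membrane and late genes. Slc4a1, the anion exchanger band 3, read 9.03, 13.54 and 11.82 in knockouts against 13.63 and 10.34 in controls. Epb42, a protein of the red cell membrane skeleton, read 7.17, 11.64 and 9.72 in knockouts against 10.88 and 7.80 in controls. Trim10, a factor of terminal red cell maturation, read 8.68, 12.87 and 10.12 in knockouts against 12.03 and 8.96 in controls. These 3 genes were thus high in the arrays where Alas2 and Fech were high. The brightest markers, the anhydrase gene Car2 and the genes Hemgn and Ermap, spanned only 0.74 to 1.62 over the arrays. Ermap, a red cell membrane protein, read 12.86, 12.83 and 13.15 in knockouts against 13.18 and 11.55 in controls, so that knockout 2 did not stand out and control 2 was lowest, as for Cpox, Uros and Ppox. Klf1 followed this second form, with 12.19, 11.91 and 12.35 in knockouts against 12.70 and 11.04 in controls. Car1, an anhydrase of red cell progenitors that was singled out after its values were seen, read 13.42, 11.22 and 12.45 in knockouts against 12.67 and 11.58 in controls, and was highest in the array where Alas2 was lowest.

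**Figure D3:**
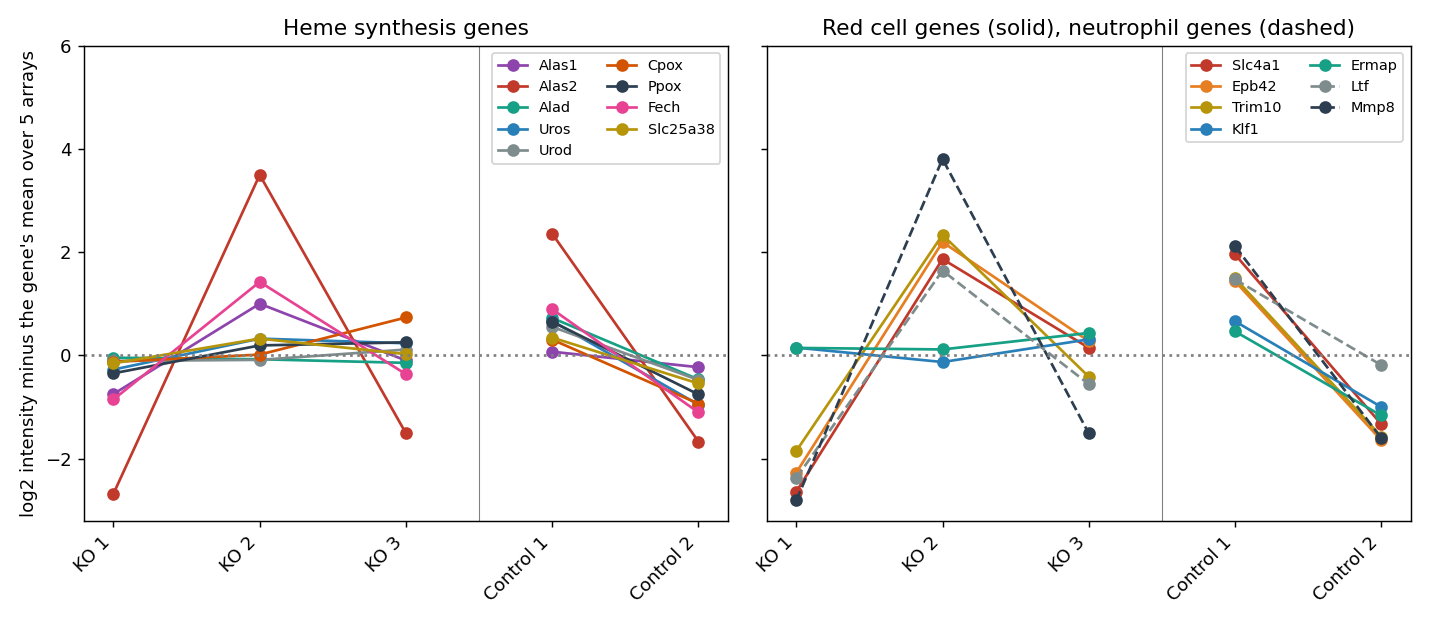
Log2 intensity minus the gene's mean over the 5 arrays, for the heme synthesis genes (left) and for red cell and neutrophil genes (right), with lines joining the arrays of a group. Alas2 and Fech share the peaks in knockout 2 and control 1 with Slc4a1, Epb42, Trim10, Ltf and Mmp8, while Klf1 and Ermap have no peak in knockout 2.

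The genes whose centred values lay closest to those of Alas2 over the 5 arrays, among 12812 genes, were Mmp8 (root mean square distance 0.19 log2 units), Hbb-b2 (0.24), Mmp9 (0.36), Tent5c (0.49) and Ceacam10 (0.50). Hbb-b2 encodes an adult beta globin, and its probe set is of the _x_at kind. Mmp8 and Mmp9 encode neutrophil proteases: Mmp8 read 6.95, 13.57 and 8.25 in knockouts against 11.88 and 8.16 in controls. Markers of neutrophils, 7 of 8 of which were measured, moved with Alas2 as well, among them the granule genes Ltf and Camp, with a mean level of 11.30, 14.56 and 12.67 in knockouts against 14.22 and 12.74 in controls. The labelled cell type was checked on stem cell markers. Their brightest, the growth factor receptor gene Kit, read 11.34, 9.60 and 11.48 in knockouts against 11.12 and 11.82 in controls, and Meis1 and Mecom were also lowest in knockout 2, at 8.67 and 8.38. The mean of these markers was 10.12, 8.09 and 10.35 in knockouts against 9.89 and 10.73 in controls (10 of 12 measured), so knockout 2 was low where Alas2 was highest. All 10 stem cell markers and all 7 neutrophil markers had lower means in knockouts, with 0 past the test. Their median differences were -0.75 and -0.62, beside -0.03 over all genes tested. The part of neutrophil and stem cell transcripts in the heme synthesis values was not tested, and in sorted bulk samples more cells of a type and more RNA per cell cannot be told apart. Alas2 itself lay at a distance of 1.51 from Fech. The genes closest to Fech were Rec114 (0.07), St3gal5 (0.09), Dhrs11 (0.11), Carhsp1 (0.13) and Slc22a4 (0.20).

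Genes that supply iron and move porphyrins were described in 2 further lists. Of 16 genes of mitochondrial iron, porphyrin transport and iron-sulfur assembly, 14 were measured, 8 had higher and 6 lower means in knockouts, and 0 passed the test in either direction (median difference 0.05). Slc25a37, mitoferrin 1, had the widest range of them, with 9.28, 12.98 and 10.39 in knockouts against 12.61 and 10.19 in controls, the arrays that were high for Alas2. Its difference was -0.52 (SE 1.35), -1.73 without control 2 and 0.69 without control 1. The smallest p of that list belonged to Clpx, a mitochondrial unfoldase known to act on the ALAS enzymes, at 8.38, 8.15 and 8.61 in knockouts against 7.92 and 8.18 in controls, a difference of 0.33 (SE 0.20, limma unadjusted p = 0.166; 0.20 without control 1). Iscu, the iron-sulfur scaffold, differed by -0.26 (-0.15 without knockout 1), the iron importer Slc25a28 by -0.21 (-0.07 without control 2) and Tmem14c, a porphyrin transporter, by 0.36 (-0.093 without control 2). Of 13 iron uptake and storage genes 12 were measured, 5 higher and 7 lower, with 0 past the test and a median of -0.03. The transferrin receptor gene Tfrc read 12.17, 13.00 and 12.51 in knockouts against 12.53 and 11.40 in controls, a difference of 0.59 (SE 0.44; 0.027 without control 2), and control 2 alone was low. Slc11a2, the iron transporter DMT1, differed by 0.52 (-0.042 without control 2), Slc39a14 by -0.57 (0.13 without control 2), the ferritin receptor gene Ncoa4 by -0.38 (-0.18 without knockout 1), and Tfr2 by -0.52 (0.20 without knockout 2). Averaged over all probe sets of a gene, the differences were smaller: 0.22 for Tfrc, 0.23 for Slc11a2, -0.15 for Slc39a14, -0.067 for Ncoa4 and -0.44 for Tfr2.

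Among the genes of heme breakdown and transport, 2 read lower on every knockout array than on both controls. Of 11 genes 9 passed the filter, 2 had higher and 7 lower means in knockouts, and 0 passed the test (limma adjusted p = 1.0 for each gene named here). Slc48a1, a heme transporter of lysosomes, read 10.17, 10.52 and 10.53 in knockouts against 11.09 and 11.07 in controls. Each knockout lay below both controls, with a difference of -0.68 (SE 0.18, limma unadjusted p = 0.0138). Averaged over all probe sets of the gene, the Slc48a1 difference was -0.60 (limma unadjusted p = 0.0549). Blvra, biliverdin reductase, read 9.23, 9.20 and 9.82 in knockouts against 10.18 and 10.18 in controls, again with no overlap. It differed by -0.76 (SE 0.24, limma unadjusted p = 0.0278), and by -0.76 with its probe sets averaged (limma unadjusted p = 0.0252). These 2 of 9 (22.2%) stood against 4.5% of all genes lower in every knockout. Hmox1, the inducible heme oxygenase, read 7.16, 7.85 and 8.29 in knockouts against 8.84 and 8.25 in controls, a difference of -0.78 (SE 0.40), and knockout 3 just exceeded control 2. As single arrays were left out, the differences stayed between -0.74 and -0.56 for Slc48a1, -0.97 and -0.66 for Blvra and -1.07 and -0.48 for Hmox1. Lrp1, a receptor that takes up the heme carrier haemopexin, differed by -0.55 (-0.01 without control 1). Macrophages, which recycle heme from red cells, are known to express Hmox1 and Slc48a1. All 15 macrophage markers were measured, and 10 of them (66.7%) were lower in each knockout than in both controls, against 4.5% of all genes. For Slc40a1, 1 of these 10, the gap lay within rounding, at 12.53 in both knockout 3 and control 2. The mean level of the 15 markers was 8.08, 8.31 and 9.35 in knockouts against 10.46 and 9.55 in controls. Of the 15, 14 had lower means in knockouts and 1, Marco, a higher one (difference 0.58). The brightest were Slc40a1, Vcam1 and Csf1r. Csf1r overlapped between the groups, with 9.99, 13.19 and 10.90 in knockouts against 12.43 and 11.09 in controls. Adgre1, Timd4, Cd68 and Marco overlapped too. Cd163, the haemoglobin scavenger receptor, had the widest range (7.21, 7.87 and 9.79 in knockouts against 12.03 and 10.74 in controls). The part of macrophages in the lower values was not tested.

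**Figure D4:**
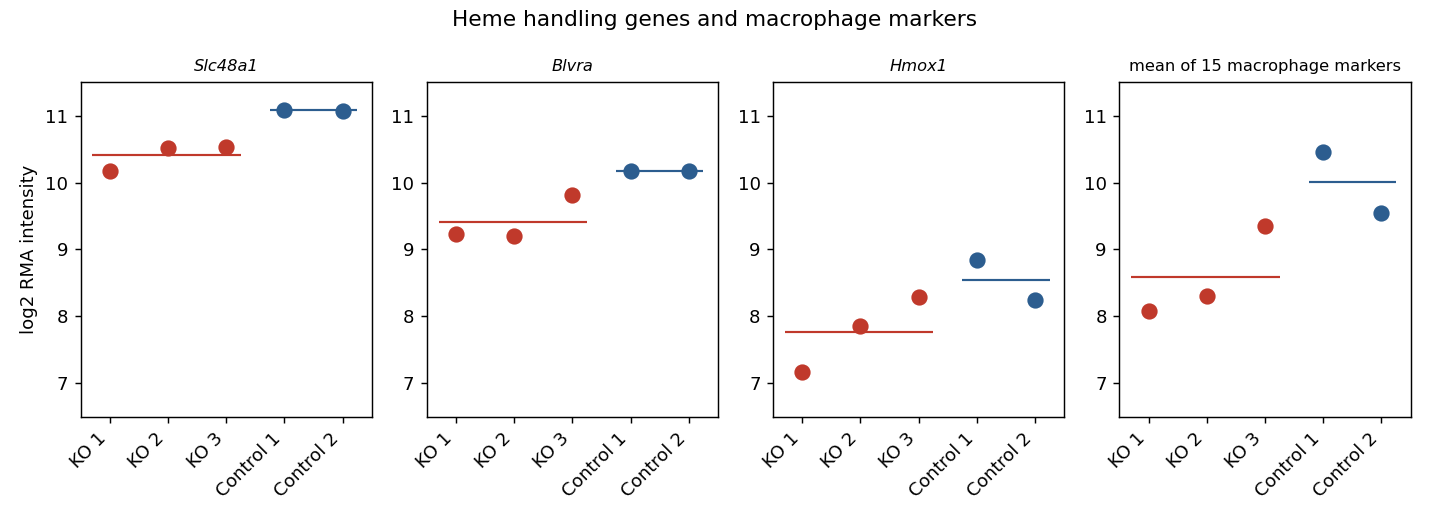
Log2 RMA intensity of Slc48a1, Blvra and Hmox1 and the mean of 15 macrophage markers on the 3 Lrf knockout arrays (KO, red) and the 2 control arrays (blue), with lines at group means. Slc48a1, Blvra and the macrophage mean are lower in each knockout than in both controls, while Hmox1 overlaps between knockout 3 (8.29) and control 2 (8.25).

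Regulators that answer to heme, such as the repressor gene Bach1 and the kinase gene Eif2ak1, showed small differences: of 12 genes 10 passed the filter, 7 with higher and 3 with lower means, 0 past the test, and a median of 0.03. Those with the smallest p were Nr1d2, a heme-binding nuclear receptor (-0.59, SE 0.50; -0.16 without knockout 2), Atf4 (0.23; 0.016 without control 2), Mafk (0.31; 0.042 without knockout 2) and Nfe2l2 (0.13; -0.00099 without control 2). Of 8 erythroid transcription factors 2 had higher and 6 lower means, with 0 past the test. Tal1 was the 1 factor of 8 (12.5%) lower in every knockout, against 4.5% of all genes, at 11.24, 10.77 and 11.35 against 11.59 and 11.49 in controls (difference -0.42, SE 0.23; -0.24 without knockout 2), and Nfe2 differed by -0.29 (-0.15 without control 2). Lmo2 (-0.35) and Zfpm1 (-0.33) differed by -0.046 and -0.018 without knockout 2. Klf1, the widest of them, differed by 0.28 (SE 0.53), 1.11 without control 1 and -0.55 without control 2. Megakaryocyte markers, 6 of which passed the filter, had a mean level of 8.41, 7.68 and 8.94 in knockouts against 9.01 and 8.95 in controls. All 6 had lower means in knockouts and 3 of them (Itga2b, Gp1bb and Gp9) were lower in every knockout than in both controls, against 4.5% of all genes, with 0 past the test. Of these markers, Vwf had the widest range (9.14, 7.29 and 10.21 in knockouts against 9.98 and 10.31 in controls).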

How the data were processed

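RNA of 5 sorted samples was amplified by repeated in vitro transcription, per the labels' protocols. The authors deposited log2 intensities made by RMA, run in Expression Console per the submitters' processing notes; the sources used here give no program versions. RMA removes background and forces all arrays to 1 distribution, which compresses the extremes and removes shifts shared by most transcripts, and the amplification favours 3′ ends.

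Of 45037 probe sets other than controls, the 40% with the lowest mean (below 5.77) were left out and 27022 tested, knockout against control. The test was limma 3.58.1 in R 4.3.3 (lmFit, eBayes, two-sided, Benjamini-Hochberg over all probe sets, adjusted p under 0.05), which also gave the SE and 95% intervals. The method was tested on simulated data with independent noise for each probe set and array, so shifts shared by many genes on an array were not covered. The share of simulated group differences that it recovered is not reported here. The number of arrays limits the precision. A gene stands for its brightest single-gene probe set (12813 genes tested). List genes without one are not analysed here. The members and lists were chosen with earlier results of these data known. Beside the members, the text names the up to 4 genes of smallest p and the widest-ranging one of each related list, the brightest and widest-ranging markers, and the 5 genes nearest to Alas2 and Fech. Alternatives were other filters, priors, array weights and normalizations, averaging all probe sets of a gene, the replicate number as a block, and dropping each array in turn.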

Additional observations from a re-analysis of the deposited data

How the results depend on the processing

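The limma count of heme synthesis genes past the threshold was 0 under every alternative run, and so was that of all probe sets; at an unadjusted p under 0.05 the latter count ranged from 174 with the lowest 60% left out to 1160 with array weights. The median difference of the 9 genes, 0.13 with all arrays, ran from -0.58 to 0.79 when arrays were dropped in turn. Dropping knockout 1, 2 or 3 gave 0.43, -0.033 and 0.17. Only dropping a control moved the median by more than 0.63, the SD between replicates of each array's median over the centred genes. Differences of single genes changed sign in 8 of 72 values under the other settings and in 14 of 45 with an array left out. Array weights, which gave knockout 1 a weight of 7.67 and knockout 2 one of 0.204, turned Alas1 (-0.56), Uros (-0.056), Ppox (-0.21), Fech (-0.63), Slc25a38 (-0.026) and Tfr2 (0.083); averaging all probe sets of a gene turned Urod (0.013) and Lrp1 (0.038). Leave-one-out ranges were -0.34 to 0.53 for Alas1, -2.59 to 1.44 for Alas2, -0.82 to 0.38 for Alad, -0.57 to 1.05 for Uros, -0.58 to 0.45 for Urod, -0.098 to 1.15 for Cpox, -0.62 to 0.79 for Ppox, -0.82 to 1.18 for Fech and -0.29 to 0.61 for Slc25a38. They were -0.093 to 0.81 for Tmem14c, -1.73 to 0.69 for Slc25a37, -0.042 to 1.08 for Slc11a2, -1.27 to 0.13 for Slc39a14, -0.93 to 0.20 for Tfr2, -0.00099 to 0.26 for Nfe2l2 and -0.55 to 1.11 for Klf1. Replicate numbers 1 and 2 occur in both groups but name different mice. With the replicate number as a block, in which knockout 3 carries no information, the pairing gave 0 calls and turned Alas2 (0.066) and Ppox (-0.027). Deviations of same-numbered arrays from their group mean correlated at -0.54 and -0.57 across probe sets. The deviations of the 2 controls are opposite by construction, so these values cannot decide whether the numbers pair the samples. Where a sign changed, the cause was not tested beyond the array or probe sets left out.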
